A study of Mus musculus with 11 samples.

Results

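The 10 Notch genes described here are the receptors Notch1, Notch2, Notch3 and Notch4, the ligands Jag1, Jag2 and Dll1, and the target genes Hes1, Hey1 and Heyl. They were chosen by name, found through their Entrez gene IDs among the 36528 IDs of the deposited tables, and followed across 3 groups of RNA sequencing libraries. The libraries were made from cell lines of mouse liver tumours. All groups carry an altered form of YAP or TAZ, related coactivators of the TEAD transcription factors that the Hippo kinases restrain by phosphorylation. In YAP-S127A (3 libraries) and TAZ-S89A (5 libraries) the serine at the named site is replaced by alanine, and in YAP-5SA (3 libraries, spelled YAP-S5A in the sample labels) several such serines are. No group without an altered YAP or TAZ was analysed here. Nothing in the labels tells whether the replicates are different tumours, different lines or repeat cultures. The p-values therefore reflect library-to-library spread alone, possibly technical, and the mutant cannot be told apart from the line that carries it. The labels give no promoter, delivery method, strain or age for the tumours.

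Notch receptors are cleaved on the way to the cell surface, bind Jagged or Delta ligands on a neighbouring cell, and are then cut by ADAM proteases and gamma-secretase. The freed intracellular part enters the nucleus and joins the DNA-binding protein RBPJ and a Mastermind coactivator to switch on genes such as the Hes and Hey repressors. In liver the pathway is known for its part in bile duct formation, where Jag1 and Notch2 are the ligand and receptor most often named, and YAP is known to raise Notch2 and Jag1 in hepatocytes.

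The stretches upstream of 3 of these genes show the sequence context of the gene most different between the YAP groups among the well-expressed members (Jag1) and of the members whose upstream stretch holds the TEAD core (Notch1 and Notch4). Each is the 250 bases before the RefSeq transcript start in GRCm38.p6, 5′ to 3′ on the gene's strand, with every match to the TEAD core GGAATG (or CATTCC, its reverse complement) in capitals. The windows are chr2:137116521-137116770 on the minus strand for Jag1, chr2:26503823-26504072 on the minus strand for Notch1, and chr17:34564045-34564294 on the plus strand for Notch4. The Notch4 window precedes a transcript start inside the gene's span, so its last bases overlap the span given below. Its match position is counted from that transcript start.
Jag1: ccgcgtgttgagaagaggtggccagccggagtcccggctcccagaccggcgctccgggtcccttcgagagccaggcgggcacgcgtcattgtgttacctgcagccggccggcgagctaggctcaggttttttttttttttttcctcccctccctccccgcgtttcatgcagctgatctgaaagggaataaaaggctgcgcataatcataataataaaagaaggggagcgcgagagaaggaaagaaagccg
Notch1: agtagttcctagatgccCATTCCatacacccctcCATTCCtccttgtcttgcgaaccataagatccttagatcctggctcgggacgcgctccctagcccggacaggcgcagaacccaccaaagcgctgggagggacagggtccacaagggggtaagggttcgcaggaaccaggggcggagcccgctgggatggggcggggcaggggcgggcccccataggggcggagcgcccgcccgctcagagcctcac
Notch4: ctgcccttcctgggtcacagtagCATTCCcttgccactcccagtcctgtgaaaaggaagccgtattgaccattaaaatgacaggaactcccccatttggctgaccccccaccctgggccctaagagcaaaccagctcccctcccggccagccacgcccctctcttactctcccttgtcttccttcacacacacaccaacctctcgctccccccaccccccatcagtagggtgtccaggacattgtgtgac
The Notch1 matches start 233 and 216 bases upstream and the Notch4 match starts 227 bases upstream. RefSeq entries were at hand for 7 of the 10 genes, in 8 windows. The target genes Hes1, Hey1 and Heyl had no entry, so their upstream stretches were not searched for either core. The TEAD core lay in the windows of Notch1 and Notch4 alone among these, against 12.6% of all 32851 windows of this length. The core of the RBPJ motif, TGGGAA or TTCCCA, lay in none of the 8 and in 21.6% of all windows. A match is a run of letters and not a measured binding site.

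Library totals ran from 20071144 to 49159713 counts, and TAZ-S89A replicates 4 and 5 were the shallowest. Levels of a gene are given as CPM, a gene's share of the scaled library, and levels of different genes are set side by side as nRPKM, the authors' length-corrected values. Of 18224 genes that passed the filter on low counts, 9 were members, and Heyl did not pass. A gene was called where its adjusted p from edgeR's quasi-likelihood test was under 0.05. The groups differed widely: 57.6% of all tested genes were called between TAZ-S89A and YAP-S127A, 57.9% between TAZ-S89A and YAP-5SA, and 55.2% between YAP-5SA and YAP-S127A. TAZ-S89A replicates 1 and 2, and likewise replicates 4 and 5, were much closer to each other than to the other libraries of that group. Their chi-square per degree of freedom over genes was 5.63 and 2.01, against 101 to 218 for the rest, so the 5 libraries may hold fewer independent samples. In YAP-S127A, replicates 1 and 2 gave 6.34 and the other pairs 15.6 and 33.1. The pairs of YAP-5SA gave 15.6, 83.0 and 131. The YAP groups may also hold fewer independent samples than libraries. These are bulk libraries, in which fewer cells of a type and less RNA per cell cannot be told apart.

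Between TAZ-S89A and YAP-S127A, 7 of the 9 tested members were called. Notch2, Jag2, Dll1 and Hey1 were higher in TAZ-S89A, and Notch3, Jag1 and Hes1 were lower. Those 4 higher and 3 lower stand beside 27% and 30.6% of all tested genes called in these directions. Between TAZ-S89A and YAP-5SA, 7 of 9 were called, with Notch4, Jag1 and Hey1 higher in TAZ-S89A and Notch3, Jag2, Dll1 and Hes1 lower, beside 26.9% and 31% of all genes. Between YAP-5SA and YAP-S127A, 5 of 9 were called, with Jag2 and Dll1 higher in YAP-5SA and Notch4, Jag1 and Hes1 lower, beside 28.2% and 27%. With a log2 fold change of 1 or more in either direction also required, 6, 4 and 4 members were called in the 3 comparisons, beside 32.2%, 33.8% and 34.4% of all tested genes. The median absolute log2 fold change of the 9 members was 1.25, 0.76 and 0.49 in these comparisons in the same order, and that of all tested genes was 0.63, 0.66 and 0.68. Each group takes part in more than 1 comparison, so the comparisons are not independent.

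**Figure D1:**
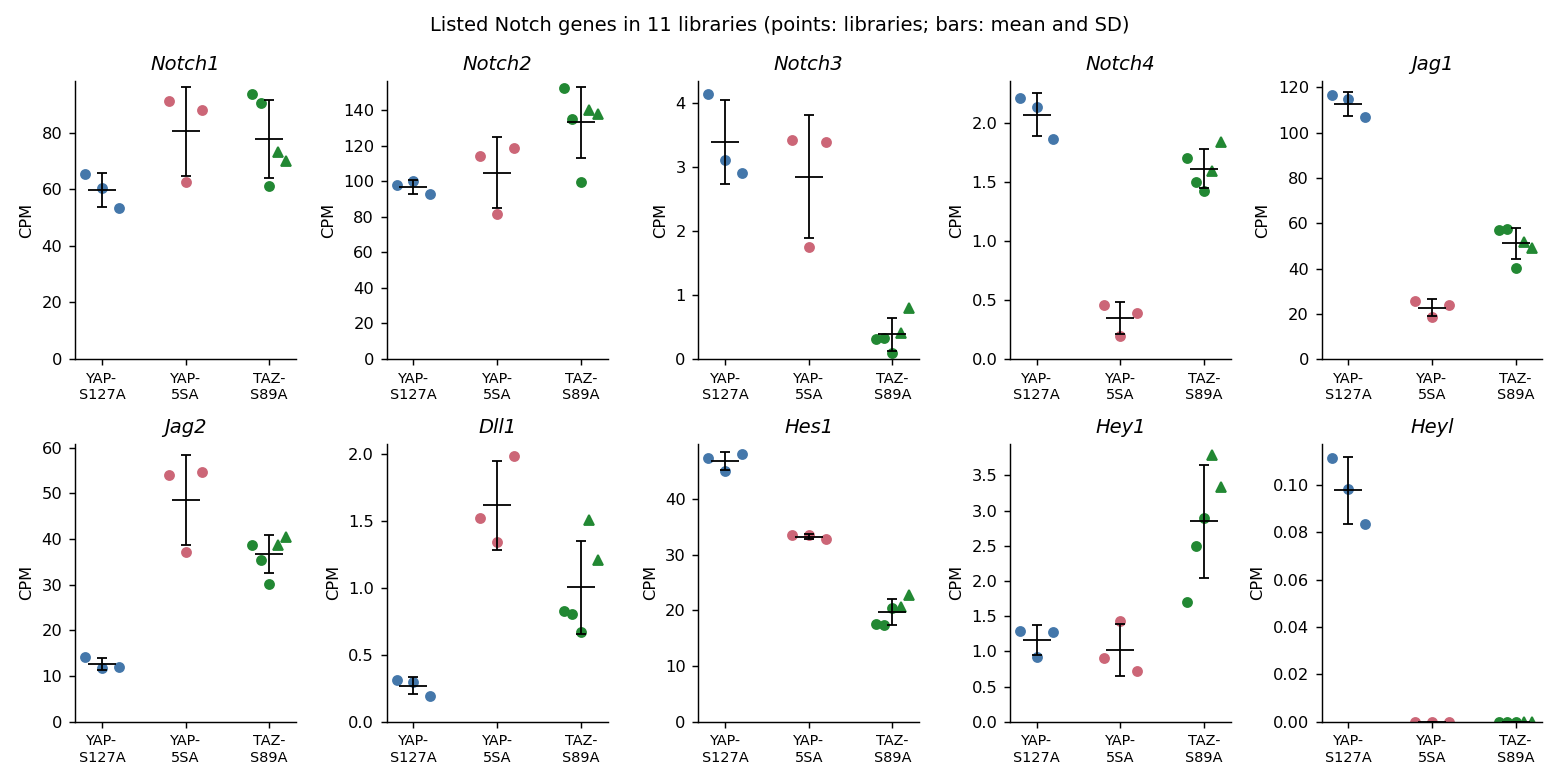
CPM of the 10 Notch genes (vertical axes, a separate linear scale from 0 for each gene) in every library of the 3 groups. Points are libraries, triangles mark TAZ-S89A replicates 4 and 5, and bars give the group mean and SD. Jag1 falls into 3 separate bands with YAP-S127A on top, Jag2 and Dll1 are lowest in YAP-S127A, Notch3 is lowest in TAZ-S89A, Notch4 is lowest in YAP-5SA, and Heyl has counts in YAP-S127A alone.

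Among the receptors, Notch2 and Notch1 made up nearly the whole receptor transcript pool in every group. Notch2, the receptor best known from bile duct formation, had a mean of 7.55 ± 0.37 nRPKM in YAP-S127A (SD, n = 3), 8.13 ± 1.57 in YAP-5SA (n = 3) and 10.4 ± 1.66 in TAZ-S89A (n = 5). Notch1 came next, with 5.17 ± 0.58, 6.91 ± 1.36 and 6.71 ± 1.09 nRPKM in the same groups. Notch3 and Notch4 together supplied 4.43% ± 0.41 of the summed receptor nRPKM in YAP-S127A, against 2.12% ± 0.37 in YAP-5SA and 1.32% ± 0.25 for TAZ-S89A, and these ranges did not overlap between YAP-S127A and the others.

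Notch1 (Entrez 18128, chr2:26457902-26503822 in GRCm38) stood at 65.5, 60.5 and 53.4 CPM in YAP-S127A replicates 1 to 3 and at 91.0, 62.4 and 87.8 CPM in the YAP-5SA libraries. The 5 TAZ-S89A libraries held 93.7, 90.5, 61.3, 73.2 and 70.1 CPM. YAP-5SA replicate 2 and TAZ-S89A replicate 3 lay within the YAP-S127A range while the rest of their groups lay above it. No comparison was called for Notch1: its log2 fold change was 0.38 (SE 0.17, adjusted p = 0.0751) for TAZ-S89A over YAP-S127A, 0.43 (SE 0.19, adjusted p = 0.0727) for YAP-5SA over YAP-S127A and -0.05 (SE 0.17, adjusted p = 0.83) for TAZ-S89A over YAP-5SA. Without TAZ-S89A replicate 3 the first 2 became calls, at adjusted p = 0.0134 and 0.0338, and without YAP-5SA replicate 2 they became calls at 0.0487 and 0.0212.

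Notch2 (Entrez 18129, chr3:98013538-98150367) stood at 97.7, 100.01 and 92.6 CPM in YAP-S127A and at 114, 81.8 and 119 CPM in YAP-5SA. In TAZ-S89A it stood at 152, 135, 99.7, 140.1 and 138 CPM, so that 4 of 5 libraries lay above every YAP library and replicate 3 lay inside the YAP range. The log2 fold change of TAZ-S89A over YAP-S127A was 0.46 (SE 0.17, adjusted p = 0.0314), a call that was lost when any single YAP-S127A library was left out (adjusted p = 0.0828, 0.074 and 0.104 without replicates 1, 2 and 3), without TAZ-S89A replicate 1 (0.0638), without TAZ-S89A replicates 4 and 5 together (0.0724), and with the close TAZ-S89A pairs summed (0.0758). Against YAP-5SA the log2 fold change was 0.34 (SE 0.17, adjusted p = 0.094), and it became a call without TAZ-S89A replicate 3 (adjusted p = 0.0121). Between the YAP groups it was 0.11 (SE 0.19, adjusted p = 0.622).

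The libraries that were low for Notch1 and Notch2 were low in long genes as a class. When 11528 genes were split by length into 5 equal classes, the median log2 deviation from the group mean in the longest class minus that in the shortest was -0.73 in TAZ-S89A replicate 3 and -0.35 in YAP-5SA replicate 2. Notch1 and Notch2 are 3.30 and 3.65 times as long as the median gene. In TAZ-S89A replicate 3 the deviations of Notch1 and Notch2 were -0.32 and -0.40, and in YAP-5SA replicate 2 they were -0.35 and -0.34. With a length term for each library, chosen after the values were seen, the Notch1 log2 fold changes over YAP-S127A became calls, at 0.50 for TAZ-S89A (adjusted p = 0.00881) and 0.68 for YAP-5SA (adjusted p = 0.00244). With the same term the Notch2 log2 fold change of YAP-5SA over YAP-S127A also became a call, at 0.39 (adjusted p = 0.0096). Whether gene length accounts for these receptor differences was not tested.

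**Figure D2:**
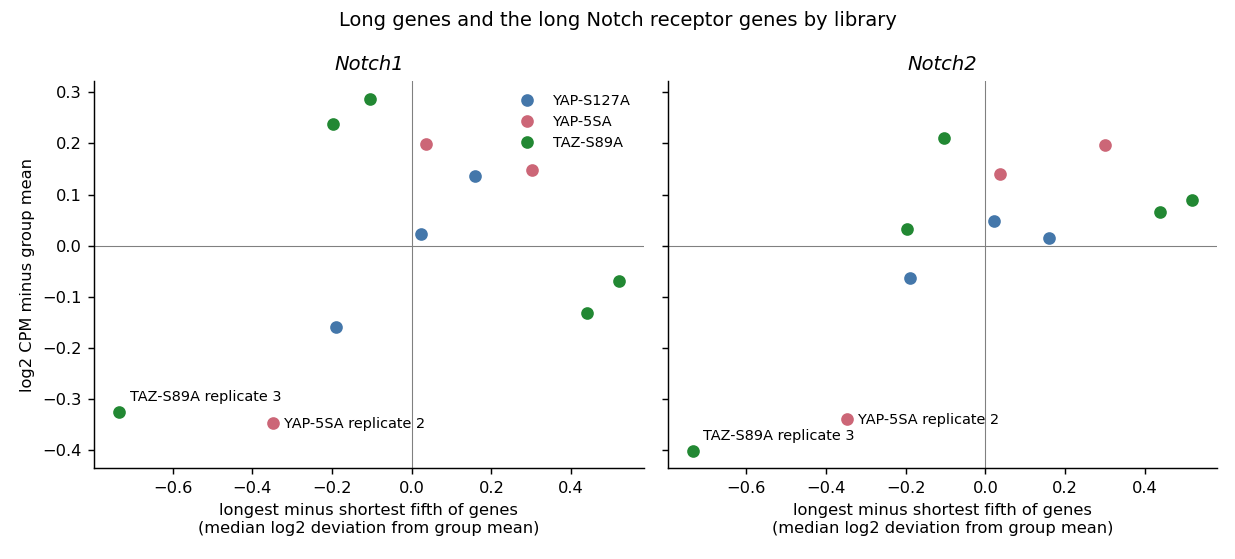
Deviation of Notch1 (left) and Notch2 (right) from the group mean in log2 CPM (vertical axis) against the gap between the longest and the shortest of 5 length classes of genes in median log2 deviation (horizontal axis), 1 point per library, coloured by group. TAZ-S89A replicate 3 and YAP-5SA replicate 2 sit at the lower left in both panels. TAZ-S89A replicates 4 and 5, at 0.52 and 0.44 on the horizontal axis, are not the highest libraries for either receptor.

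Notch3 (Entrez 18131, chr17:32120820-32166896), the receptor known from vascular smooth muscle and pericytes, was much lower in TAZ-S89A than in either YAP group. It stood at 4.15, 3.12 and 2.92 CPM in YAP-S127A, at 3.42, 1.75 and 3.39 CPM in YAP-5SA, and at 0.307, 0.334, 0.087, 0.408 and 0.793 CPM in TAZ-S89A, where libraries held 3 to 19 counts. No TAZ-S89A library reached the lowest YAP library. The log2 fold change of TAZ-S89A was -3.22 against YAP-S127A (SE 0.39, adjusted p = 8.87e-06) and -2.96 against YAP-5SA (SE 0.39, adjusted p = 1.85e-05). The YAP groups overlapped, and YAP-5SA against YAP-S127A gave -0.26 (SE 0.38, adjusted p = 0.585).

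Notch4 (Entrez 18132, chr17:34564286-34588543), best known from endothelium, was also highest in YAP-S127A, but YAP-5SA was its low group. It stood at 2.21, 2.13 and 1.86 CPM in YAP-S127A, at 0.454, 0.191 and 0.387 CPM in YAP-5SA, and at 1.70, 1.49, 1.42, 1.59 and 1.84 CPM in TAZ-S89A. All YAP-5SA libraries lay below all others. The log2 fold change was -2.58 for YAP-5SA against YAP-S127A (SE 0.28, adjusted p = 3.17e-06) and 2.22 for TAZ-S89A against YAP-5SA (SE 0.27, adjusted p = 6.65e-06). Every TAZ-S89A library lay below every YAP-S127A library, but that difference was not called (log2 fold change -0.37, SE 0.21, adjusted p = 0.16). Both genes sit at the low end of the receptor range, at no more than 0.431 nRPKM in any library.

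Markers of the cell types in which Notch3 and Notch4 are best known were read from the same libraries. Of 11 endothelial markers, 9 were under 0.5 nRPKM in each library of YAP-S127A, the sense in which a marker is called under that level of a group here. All 11 were under it in the other groups. Pecam1, Cdh5, Kdr, Tek, Tie1, Vwf, Erg, Sox17 and Sox18 were under it in every group. The summed endothelial level was 5.52 to 6.51 nRPKM in YAP-S127A, 0.425 to 0.590 in YAP-5SA and 0.133 to 0.317 in TAZ-S89A, while Notch4 had means of 0.241, 0.040 and 0.188 nRPKM in the same groups. Most of the endothelial sum in YAP-S127A came from Emcn and Esam, with means of 4.22 and 1.40 nRPKM there. The summed level of 10 mural and stellate markers was 211 to 228 nRPKM in YAP-S127A, 1.06 to 1.37 in YAP-5SA and 42.9 to 57.8 in TAZ-S89A, with Lrat, Des, Kcnj8, Abcc9, Rgs5 and Reln under 0.5 nRPKM in every group. The mural markers Mcam and Acta2 were lower in TAZ-S89A than in YAP-S127A, with log2 fold changes of -3.94 and -3.08 (adjusted p = 2.07e-10 and 1.6e-06), as Notch3 was. Cspg4 was also lower, with 3332, 13 and 12 counts over YAP-S127A, YAP-5SA and TAZ-S89A. Pdgfrb had a log2 fold change of -0.82 (adjusted p = 0.000599), but Reln was higher, with 19, 3 and 247 counts over the same groups. Cspg4 and Reln passed the low-count filter through their high group alone, so no fold change is given for them. Against YAP-5SA, Pdgfrb, Acta2 and Mcam were higher in TAZ-S89A, with log2 fold changes of 7.90, 4.26 and 4.13. Reln was also higher by its counts. Notch3 was lower there, and Cspg4 had few counts in both groups. The mural sum was lowest in YAP-5SA. The 10 biliary markers summed to 250 to 313, 1565 to 2386 and 1001 to 1858 nRPKM in YAP-S127A, YAP-5SA and TAZ-S89A, and the 10 hepatocyte markers to 22.2 to 25.0, 70.0 to 73.7 and 1.01 to 1.38. Among the biliary markers, Spp1 carried the TAZ-S89A sum, with means of 161, 99.6 and 1341 nRPKM in the same groups. The biliary keratins went the other way: Krt7 had means of 44.5, 758 and 0.615 nRPKM and Krt19 33.3, 813 and 4.44. Most of the hepatocyte sum in YAP-5SA came from Apob and Fah, with means of 42.4 and 25.1 nRPKM there. Of the hepatocyte markers, Apoa1, Ttr, Tat, Cps1 and Serpina1a were under 0.5 nRPKM in every group, Alb, at 0.265 to 0.517 nRPKM in YAP-S127A, was under it in the other groups, and the biliary markers Epcam, Prom1 and Onecut1 were under it in every group. The 8 macrophage and leukocyte markers summed to 5.79 to 6.14, 20.6 to 26.1 and 3.91 to 4.70 nRPKM, with Ptprc, Adgre1 and Itgam under 0.5 in every group. Lyz2 and Csf1r, with means of 12.3 and 5.34 nRPKM, made up most of that sum in YAP-5SA. The part of these marker differences in the Notch values was not tested.

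The ligands differed most clearly in kind. Jag1 supplied 89.1% ± 0.8 of the summed nRPKM of the 3 ligands in YAP-S127A, 55.9% ± 2.82 in TAZ-S89A and 29.8% ± 1.39 in YAP-5SA. Jag2, its close relative, supplied 10.6% ± 0.79, 42.7% ± 2.53 and 67.3% ± 1.27 in the same order, and Dll1 the remaining 0.278% ± 0.055, 1.45% ± 0.45 and 2.82% ± 0.40. Of these 3 ligands, Jag1 was the main transcript in YAP-S127A, Jag2 was the main one in YAP-5SA, and TAZ-S89A held both. The ligands summed to 18.9 ± 1.12 nRPKM in YAP-S127A, against 11.3 ± 2.19 in YAP-5SA and 13.7 ± 1.74 for TAZ-S89A.

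**Figure D3:**
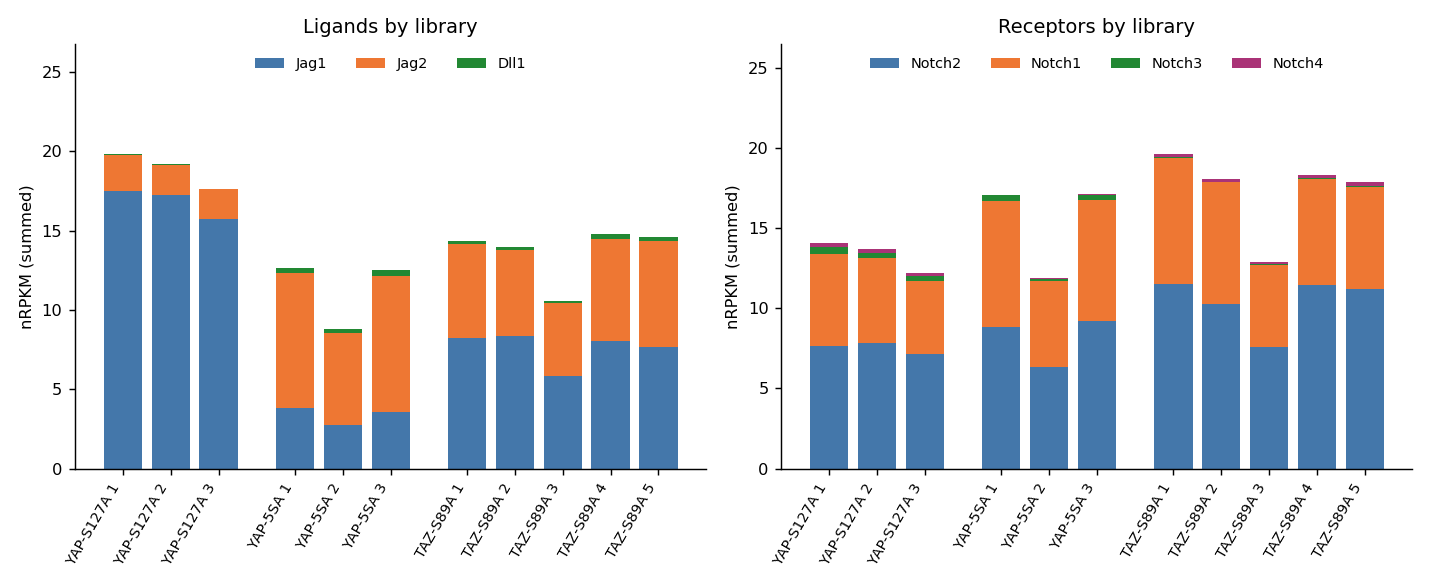
Summed nRPKM of the 3 ligands (left) and the 4 receptors (right) in each of the 11 libraries, stacked by gene on an axis from 0. The ligand bars pass from mostly Jag1 in YAP-S127A to mostly Jag2 in YAP-5SA, with both in TAZ-S89A, while Notch2 and Notch1 fill nearly all of each receptor bar. TAZ-S89A replicate 3 and YAP-5SA replicate 2 have the shortest bars of their groups in both panels.

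Jag1 (Entrez 16449, chr2:137081451-137116520), the Jagged ligand mutated in Alagille syndrome, stood at 116, 115 and 107 CPM in YAP-S127A. YAP-5SA held 25.8, 18.4 and 23.9 CPM, and TAZ-S89A held 56.8, 57.4, 40.1, 51.7 and 49.3 CPM. The 3 groups did not overlap in any pair. The log2 fold change was -2.31 for YAP-5SA against YAP-S127A (SE 0.17, adjusted p = 7.34e-08), -1.14 for TAZ-S89A against YAP-S127A (SE 0.14, adjusted p = 1.16e-05) and 1.17 for TAZ-S89A against YAP-5SA (SE 0.15, adjusted p = 1.59e-05). Every one of these calls held under each alternative that was run.

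Jag2 (Entrez 16450, chr12:112907803-112929812) ran the other way. It stood at 14.2, 11.8 and 11.9 CPM in YAP-S127A, at 54.0, 37.1 and 54.6 CPM in YAP-5SA, and at 38.7, 35.4, 30.1, 38.8 and 40.5 CPM in TAZ-S89A. All libraries of the other groups lay above YAP-S127A, and YAP-5SA replicate 2 lay inside the TAZ-S89A range. Against YAP-S127A the log2 fold change was 1.94 in YAP-5SA (SE 0.17, adjusted p = 5.02e-07) and 1.53 in TAZ-S89A (SE 0.16, adjusted p = 2.03e-06). The difference between TAZ-S89A and YAP-5SA was -0.41 (SE 0.15, adjusted p = 0.0302), and this call, besides not reaching 1 on the log2 scale, was lost under 10 of 22 other alternatives, among them DESeq2 (adjusted p = 0.0504), leaving out YAP-5SA replicate 1 (0.137) or 3 (0.135), and leaving out TAZ-S89A replicate 2 (0.0561) or 3 (0.0833).

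The ratio of Jag1 to Jag2 within a library, which any scaling of the library leaves unchanged, separated all 3 groups. In nRPKM it was 7.73, 9.13 and 8.43 in the YAP-S127A libraries, 0.450, 0.468 and 0.412 in those of YAP-5SA, and 1.39, 1.53, 1.26, 1.26 and 1.15 in TAZ-S89A. The groups did not overlap in any pair. The mean log2 ratio was 3.07 ± 0.12, -1.18 ± 0.09 and 0.39 ± 0.16 (SD, n = 3, 3 and 5), a difference of -4.25 between YAP-5SA and YAP-S127A, -2.68 between TAZ-S89A and YAP-S127A, and 1.56 between TAZ-S89A and YAP-5SA. A two-sided exact permutation test gave p = 0.1 for the YAP groups and p = 0.0357 for each comparison with TAZ-S89A, the smallest values that 3 against 3 and 5 against 3 libraries allow. Adjusted over the 6 ratio tests that were run, these became 0.12 and 0.0714 by the exact test. The other ratio tested, Notch2 over Notch1, had mean log2 values of 0.55 ± 0.11, 0.24 ± 0.05 and 0.63 ± 0.17 in YAP-S127A, YAP-5SA and TAZ-S89A, with exact p = 0.607 for TAZ-S89A against YAP-S127A, 0.0357 against YAP-5SA and 0.1 between the YAP groups (adjusted 0.607, 0.0714 and 0.12).

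Dll1 (Entrez 13388, chr17:15367354-15376932), the Delta ligand of the set, was a minor transcript but followed Jag2 in its order of groups. It stood at 0.312, 0.295 and 0.194 CPM in YAP-S127A (7 to 14 counts), at 1.52, 1.34 and 1.99 CPM in YAP-5SA, and at 0.826, 0.802, 0.667, 1.51 and 1.21 CPM in TAZ-S89A. No YAP-S127A library reached any other, and TAZ-S89A replicate 4 lay within the YAP-5SA range. Over YAP-S127A the log2 fold change was 2.57 in YAP-5SA (SE 0.36, adjusted p = 3.58e-05) and 1.85 in TAZ-S89A (SE 0.35, adjusted p = 0.000445). The difference of -0.72 between TAZ-S89A and YAP-5SA (SE 0.27, adjusted p = 0.0359) was lost under 10 of 21 alternatives, among them leaving out TAZ-S89A replicate 1 (0.0765), 2 (0.0788) or 3 (0.0926) and YAP-5SA replicate 1 (0.0653) or 3 (0.162). Replicates 4 and 5 were the highest of TAZ-S89A, and the call was kept with both left out.

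The targets did not move as a block. Hes1 (Entrez 15205, chr16:30065357-30067796), the repressor most often read as a Notch output, was the highest of the 10 genes per length in YAP-S127A and YAP-5SA, with means of 22.2 ± 0.63 and 15.7 ± 0.18 nRPKM, and stood at 9.39 ± 1.40 in TAZ-S89A. It held 47.3, 44.98 and 48.0 CPM in YAP-S127A, 33.5, 33.5 and 32.8 CPM in YAP-5SA, and 17.5, 17.3, 20.5, 20.5 and 22.8 CPM in TAZ-S89A. The 3 groups were separate, in the order YAP-S127A, YAP-5SA, TAZ-S89A. All 3 comparisons were called for Hes1, with a log2 fold change of -1.25 for TAZ-S89A against YAP-S127A (SE 0.11, adjusted p = 4.34e-07), -0.76 for TAZ-S89A against YAP-5SA (SE 0.11, adjusted p = 5.88e-05) and -0.49 for YAP-5SA against YAP-S127A (SE 0.13, adjusted p = 0.00503).

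Hey1 (Entrez 15213, chr3:8663359-8667038), a related repressor known from vessels and heart, went the opposite way to Hes1 in TAZ-S89A. It stood at 1.29, 0.919 and 1.28 CPM in YAP-S127A, at 0.909, 1.43 and 0.726 CPM in YAP-5SA, and at 1.70, 2.50, 2.90, 3.79 and 3.34 CPM in TAZ-S89A. All 5 TAZ-S89A libraries lay above all YAP libraries, with replicate 1 the nearest to them, and the YAP groups overlapped. The log2 fold change of TAZ-S89A was 1.26 over YAP-S127A (SE 0.29, adjusted p = 0.00218) and 1.45 over YAP-5SA (SE 0.30, adjusted p = 0.000775), and between the YAP groups it was -0.19 (SE 0.33, adjusted p = 0.648).

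Heyl (Entrez 56198, chr4:123233556-123249870), a relative of Hey1 known from smooth muscle, was near the limit of detection. It had 5, 3 and 3 counts in YAP-S127A (0.111, 0.0984 and 0.0834 CPM) and 0 in all 8 other libraries. The 11 pooled counts of YAP-S127A carry an exact 95% interval of 5.49 to 19.7 counts. Taking 3 pooled counts as the floor of a group without any, and the 11 counts as they stand, Heyl was at least 3.97-fold higher in YAP-S127A than in YAP-5SA and at least 5.60-fold higher than in TAZ-S89A. At the lower end of the interval of the 11 counts these bounds come to 1.98-fold and 2.80-fold.

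**Figure D4:**
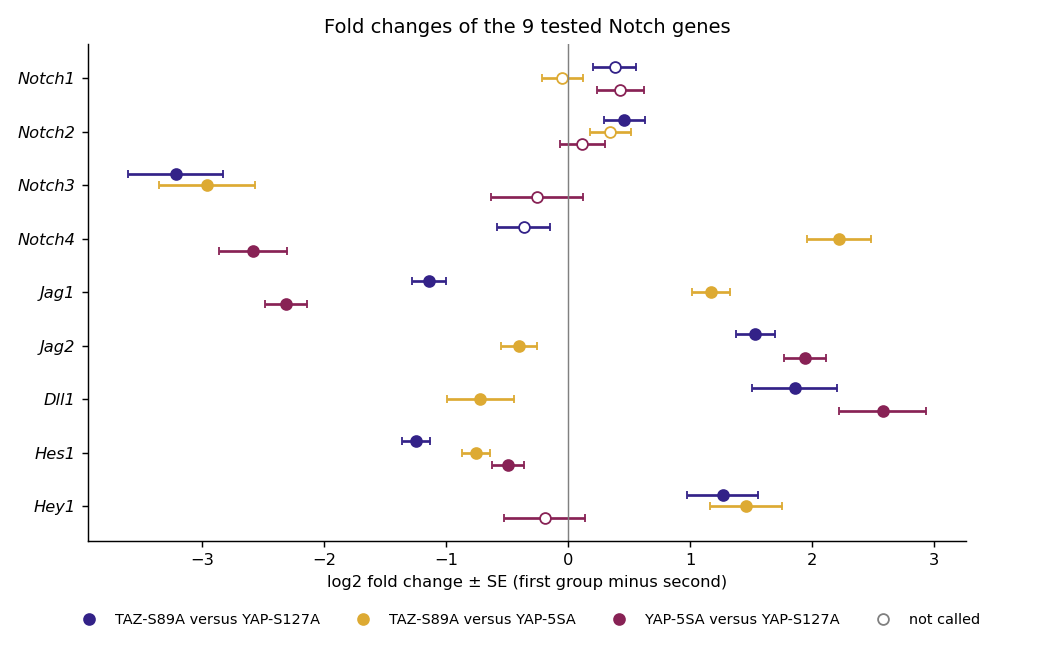
Log2 fold change with its standard error (horizontal axis) for the 9 tested Notch genes (vertical axis) in the 3 comparisons, given as colours. Filled points passed the adjusted p threshold and open points did not. Jag1 and Jag2 lie on opposite sides of 0 in every comparison, Hes1 and Hey1 do so for TAZ-S89A against both YAP groups, and Notch1 has no filled point.

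Further genes of the pathway were read from 7 lists holding 71 genes, of which 64 were tested. Between TAZ-S89A and YAP-S127A 21 were higher and 20 lower in TAZ-S89A, between TAZ-S89A and YAP-5SA 21 were higher and 16 lower, and between YAP-5SA and YAP-S127A 16 were higher and 19 lower in YAP-5SA. Those counts, 41, 37 and 35 of 64, stand beside the 57.6%, 57.9% and 55.2% of all genes called. Their median absolute log2 fold change was 0.61, 0.49 and 0.69, against 0.63, 0.66 and 0.68 for all tested genes.

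Among the further targets, Nrarp, a feedback inhibitor of the Notch nuclear complex, resembled Hes1 and Notch3 in being lowest in TAZ-S89A. Nrarp stood at 7.22, 6.04 and 5.67 CPM in YAP-S127A, at 7.56, 7.55 and 7.58 CPM in YAP-5SA, and at 0.543, 0.379, 0.580, 0.693 and 0.919 CPM in TAZ-S89A. Its log2 fold change in TAZ-S89A was -3.39 against YAP-S127A (adjusted p = 1.01e-08) and -3.65 against YAP-5SA (adjusted p = 3.65e-09), and 0.26 between the YAP groups (adjusted p = 0.308). Hey2, the other relative of Hey1, had 208 counts over the TAZ-S89A libraries, 57 over YAP-S127A and 1 over YAP-5SA. Hey2 rose by a log2 fold change of 1.27 in TAZ-S89A over YAP-S127A (adjusted p = 0.0013), and its pooled ratio to YAP-5SA was 147 for TAZ-S89A (95% counting interval 26.2 to 5847) and 61.7 for YAP-S127A (10.6 to 2480). Of the 10 tested in this list, 2 rose and 5 fell in TAZ-S89A against YAP-S127A, 2 rose and 6 fell against YAP-5SA, and 6 rose and 3 fell in YAP-5SA against YAP-S127A. Beside these counts, 27% and 30.6%, 26.9% and 31%, and 28.2% and 27% of all tested genes were called higher and lower. Cdkn1a and Ccnd1 are cell cycle genes with many inputs besides Notch. Cdkn1a had means of 85.8, 272 and 5.22 CPM and Ccnd1 503, 2015 and 199 CPM in YAP-S127A, YAP-5SA and TAZ-S89A. Hes2, Hes3 and Hes5 were too low to test, and Hes5 had 1 count in all libraries together.

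In the nuclear complex, Rbpj, the DNA-binding partner of all Notch receptors, had the same order of group means as Jag1 and Notch4. Rbpj stood at 39.8, 34.5 and 33.4 CPM in YAP-S127A, at 6.15, 7.10 and 8.06 CPM in YAP-5SA, and at 17.1, 17.0, 14.9, 31.4 and 30.4 CPM in TAZ-S89A. The TAZ-S89A values fell into 2 levels, with replicates 4 and 5 near YAP-S127A and the other 3 lower. The log2 fold change was -2.34 for YAP-5SA against YAP-S127A (adjusted p = 7.65e-06), 1.63 for TAZ-S89A against YAP-5SA (adjusted p = 8.04e-05) and -0.70 for TAZ-S89A against YAP-S127A (adjusted p = 0.0181). The last was lost without TAZ-S89A replicate 3 (0.0612), without that library and YAP-5SA replicate 2 together (0.0858) and without YAP-S127A replicate 1 (0.0723). Rbpj has pseudogene copies, so its counts are uncertain. The Mastermind coactivators went apart: Maml2 fell in TAZ-S89A by 2.11 on the log2 scale against YAP-S127A, and Maml3 rose by 1.03 (adjusted p = 3.19e-08 and 0.000123). Against YAP-5SA, Maml2 fell by 0.75 and Maml3 rose by 1.93 (adjusted p = 0.000724 and 4.25e-07). Kat2b, an acetyltransferase of the complex, rose in TAZ-S89A by 1.24 over YAP-S127A and by 1.07 over YAP-5SA (adjusted p = 2.58e-06 and 9.19e-06). Over the 9 tested genes of the list, 2 rose and 3 fell in TAZ-S89A against YAP-S127A (27% and 30.6% of all genes), 4 rose and 1 fell against YAP-5SA (26.9% and 31%), and 0 rose and 4 fell in YAP-5SA against YAP-S127A (28.2% and 27%). Of 12 corepressors, 3 rose and 1 fell in TAZ-S89A against YAP-S127A (27% and 30.6% of all genes). In TAZ-S89A against YAP-5SA, 3 rose and 0 fell (26.9% and 31%), and in YAP-5SA against YAP-S127A 0 rose and 3 fell (28.2% and 27%). Tle1, Tle2 and Tle3 were not called in any comparison. Tle4, a Groucho-type partner of Hes proteins, was lowest in YAP-5SA with a mean of 1.43 ± 0.35 CPM against 10.3 ± 0.9 in YAP-S127A and 10.4 ± 2.55 in TAZ-S89A. Its log2 fold change was -2.85 for YAP-5SA against YAP-S127A (adjusted p = 4e-07) and 2.86 for TAZ-S89A against YAP-5SA (adjusted p = 1.69e-07).

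Genes that act on the receptor or the ligand protein also differed. Lfng, a Fringe enzyme that adds sugar to Notch and shifts its preference from Jagged to Delta ligands, had means of 22.2, 25.5 and 58.3 CPM in YAP-S127A, YAP-5SA and TAZ-S89A. Lfng rose in TAZ-S89A by 1.39 on the log2 scale over YAP-S127A and by 1.20 over YAP-5SA (adjusted p = 8.26e-07 and 3.12e-06), and Mfng, another Fringe gene with 13 to 59 counts a group, rose by 1.53 and 1.33 (adjusted p = 0.00477 and 0.00836). Of the 6 genes of the maturation list, 4 were higher and 2 lower in TAZ-S89A against YAP-S127A (27% and 30.6% of all genes), 3 higher and 1 lower against YAP-5SA (26.9% and 31%), and 0 higher and 2 lower in YAP-5SA against YAP-S127A (28.2% and 27%). Of 9 receptor cleavage genes, 2 rose and 4 fell in TAZ-S89A against YAP-S127A (27% and 30.6% of all genes). In TAZ-S89A against YAP-5SA, 1 rose and 4 fell (26.9% and 31%), and in YAP-5SA against YAP-S127A 5 rose and 1 fell (28.2% and 27%). None of them was called with a change of 1 or more on the log2 scale between TAZ-S89A and YAP-S127A, beside 32.2% of all tested genes. Against YAP-5SA, Aph1b and Aph1c, near-identical gamma-secretase subunit genes whose counts are therefore uncertain, were lower in TAZ-S89A, with log2 fold changes of -1.55 and -1.96 (adjusted p = 1.49e-06 and 1.2e-05). Of 14 tested genes of ligand endocytosis and receptor turnover, 7 rose and 3 fell in TAZ-S89A against YAP-S127A (27% and 30.6% of all genes), 7 rose and 2 fell against YAP-5SA (26.9% and 31%), and 4 rose and 3 fell in YAP-5SA against YAP-S127A (28.2% and 27%). Its largest changes between TAZ-S89A and YAP-S127A were in the Neuralized-type ubiquitin ligases, which act on Notch ligands in flies: Neurl1a had a mean of 2.08 ± 0.77 CPM in YAP-S127A against 21.5 ± 3.91 in YAP-5SA and 27.7 ± 3.39 with TAZ-S89A, so YAP-S127A was the low group, as it was for Jag2. Neurl1a rose by 3.35 in YAP-5SA and by 3.72 in TAZ-S89A over YAP-S127A on the log2 scale (adjusted p = 7.49e-08 and 1.39e-08). Neurl3 and Neurl1b rose in TAZ-S89A over YAP-S127A by 3.68 and 2.09 (adjusted p = 5.2e-08 and 7.64e-07). Of the 4 other ligands tested, 1 rose and 2 fell in TAZ-S89A against YAP-S127A (27% and 30.6% of all genes), 1 rose and 2 fell against YAP-5SA (26.9% and 31%), and 1 rose and 3 fell in YAP-5SA against YAP-S127A (28.2% and 27%). Mfap5, a microfibril protein that can bind Notch ligands, had means of 10.3, 4.11 and 0.0417 CPM in YAP-S127A, YAP-5SA and TAZ-S89A, and fell in TAZ-S89A by 7.68 against YAP-S127A and by 6.36 against YAP-5SA on the log2 scale (adjusted p = 1.47e-10 and 1.26e-09). Its relative Mfap2 had 100 counts over YAP-S127A, against 8 and 4 over TAZ-S89A and YAP-5SA. Mfap2 passed the low-count filter through YAP-S127A alone, so no fold change is given for it. Dner, an atypical Notch ligand, had 56, 4 and 96 counts over YAP-S127A, YAP-5SA and TAZ-S89A, and fell by 3.81 in YAP-5SA against YAP-S127A (adjusted p = 1.19e-05). The one that rose over YAP-S127A, Dlk2, a Delta-like protein that does not activate Notch in the usual way, had means of 9.78, 78.4 and 58.8 CPM, and its log2 fold change over YAP-S127A was 3.003 in YAP-5SA and 2.59 in TAZ-S89A (adjusted p = 1.62e-09 and 2.24e-09). Dll3 and Dll4 were too low to test in all groups.

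**Figure D5:**
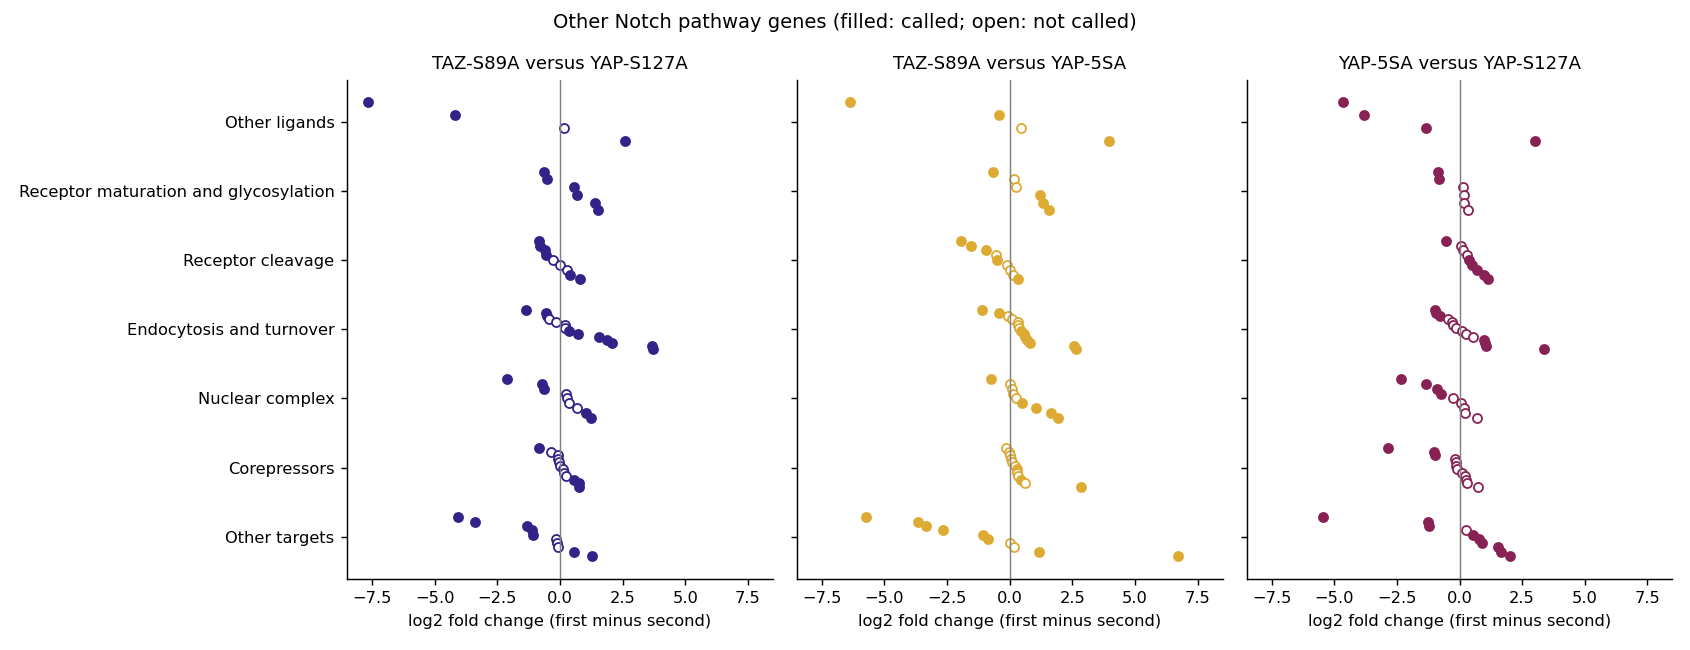
Log2 fold change (horizontal axis) of the 64 tested genes of 7 further Notch pathway lists (vertical axis), with a panel for each comparison. Filled points were called and open points were not. Points lie on both sides of 0 in most lists, and the outlying points at the right and left of the target list in the middle panel are Hey2 and Cdkn1a.

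For each member whose group means spanned more than 2 on the log2 CPM scale, the 2 genes with the most similar pattern over the 11 libraries were found among genes with an average log2 CPM of at least 2. Likeness was the root mean square difference of log2 CPM after each gene was centred on its mean over the libraries. For Jag1 these were Mtss2 and Tram2, at 0.0714 and 0.085. For Notch4 they were Uhrf1bp1 and Camkk2 (0.175 and 0.18), for Dll1 Bcl3 and Slc22a23 (0.219 and 0.227), and for Notch3 Shank2 and Arap3 (0.365 and 0.375). Mtss2 had means of 35.6 ± 1.55, 6.95 ± 1.30 and 15.8 ± 2.52 CPM in YAP-S127A, YAP-5SA and TAZ-S89A, which matches the steps of Jag1 at a lower level. Likeness of pattern over libraries that share 3 groups is a description of those groups.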

How the data were processed

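PolyA RNA of 11 libraries was analysed, each in the group its label names, with replicates numbered in accession order. The deposited counts are, per the file headers, uniquely aligned reads for every Entrez gene model. The other deposited column is nRPKM, an RPKM that the authors, per the file headers, adjusted with library size factors. It was used to compare levels between genes, for shares, sums and ratios of genes, and for marker levels. Differences between groups in nRPKM levels and sums rest on the authors' size factors. The edgeR tests used the counts. Reads were aligned with GSNAP to GRCm38, per the submitters' processing notes. Not given in the sources used here were the version of GSNAP, how reads were counted and on which annotation or strand, and the size factor method. RefSeq (GRCm38.p6) supplied symbols for 31049 of 36528 IDs, positions and upstream sequences. The other 5479, with 2.91% of counts, were kept. Overlapping genes of the members held at most 70 counts in all.

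Counts were fitted with edgeR 4.0.16 in R 4.3.3 (filterByExpr by group, TMM, robust quasi-likelihood fit of all 11 libraries with group as the only term). The filter kept 18224 genes, and p-values were adjusted over these by the Benjamini-Hochberg method. CPM are on the TMM scale. The fit was tested on simulated data. The alternatives were DESeq2 1.42.0, limma-voom (limma 3.58.1), upper-quartile or RLE factors, no filter, a strict filter (1 CPM in 3 libraries and an average log2 CPM of 1), only the groups compared, TAZ-S89A pairs summed, TAZ-S89A replicates 4 and 5 left out, a log2 fold change of 1 or more in either direction as a second condition (for counts of called genes only), and each library left out in turn. Leaving out YAP-5SA replicate 2 with TAZ-S89A replicate 3, and a gene length offset, were added after the data were seen. The members and lists were chosen with earlier results of these data known. Besides all members, the text names up to 3 called genes per list and comparison with the largest log2 fold change in size, if 1 or more, and the genes most like members spanning over 2 on the log2 CPM scale. Other named genes, and further comparisons of these, were chosen after their values were seen.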

Additional observations from a re-analysis of the deposited data

Results flagged for a closer look

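In TAZ-S89A, the only group of more than 3 libraries, the named genes were screened for a library standing far from the other 4 in CPM, judged by its gap to the nearest of them as a share of the whole range. For independent, normally spread values chance marks about 1 in 20 groups in such a screen. The close pairs of TAZ-S89A libraries are not such values, so that rate does not hold here. Of 53 genes, 6 were marked, and this count was not set against a chance rate. None of the 10 listed Notch genes was among them. Replicate 3 stood apart for 3 Notch pathway genes: Dlk2 at 72.5 CPM against 53.9 to 57.0 in the other 4, Neurl1a at 21.6 CPM against 28.8 to 29.6, and Poglut1, which adds glucose to Notch, at 158 CPM against 100.4 to 114. The remaining 3 were cell type markers. Csf1r was 2.36 CPM in replicate 1 against 1.59 to 1.76, and Kdr was 0.245 CPM in replicate 4 against 0.0446 to 0.087. Alb was 0.0223 CPM in replicate 2, from 1 count, against 0 in the others, a pattern that this screen always marks.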

How the results depend on the processing

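No paired analysis was run, because the labels name nothing that links a library of a group to a library of another group. The number of called genes stayed within 1.5 times in each comparison except when a log2 fold change of 1 or more in size was also required, when 5873, 6164 and 6269 genes were called for TAZ-S89A over YAP-S127A, TAZ-S89A over YAP-5SA and YAP-5SA over YAP-S127A. Of 27 member comparisons, 17 kept direction and call under every alternative other than that condition on size, which was applied to counts only and which Hes1 does not meet in YAP-5SA over YAP-S127A or TAZ-S89A over YAP-5SA. The 17 took in all of Notch4, Jag1 and Hes1. Over all member values, 526 of 573 kept both, 26 lost the call, 12 gained it and 9 turned direction. All 9 belonged to small differences that were not called. Notch1 in TAZ-S89A over YAP-5SA turned to 0.019 with upper-quartile factors and 0.039 without TAZ-S89A replicates 4 and 5, and ran from -0.20 to 0.060 with 1 library left out. Notch3 in YAP-5SA over YAP-S127A was 0.0074 without the 2 libraries low in long genes and ran from -0.40 to 0.0014, the latter without YAP-5SA replicate 2, with 1 library left out. Hey1 in the same comparison ran from -0.52 to 0.0098, the latter without YAP-5SA replicate 3. The cause was not tested. The strict filter removed Notch3, Notch4, Dll1 and Hey1, which therefore have no value there. Summing TAZ-S89A pairs does not bear on the YAP groups. Heyl was tested only without a filter. Of 94 comparisons of named genes in the other lists, 89 kept direction and call under the same alternatives and none turned; Maml2 and Dlk2 in TAZ-S89A over YAP-5SA and Maml3 in YAP-5SA over YAP-S127A, among others, do not meet the condition on size. Depth limits Heyl, Dll1, Notch3 and Notch4 most: single libraries held as few as 0, 7, 3 and 8 of their counts.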
